A study of Mus musculus with 10 samples.

Results

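The expression of 10 genes that store neutral lipid in droplets or handle fatty acids was followed in cultured mouse macrophages. They were chosen by name from their known function: Plin2, Plin3 and Hilpda at the droplet surface, Soat1, Dgat1 and Dgat2 in esterification, Pnpla2 in lipolysis, Lpl outside the cell, and Fabp4 and Fabp5 as intracellular fatty acid carriers. All 10 had a row among the 29700 gene rows, and 9 of them passed the filter on low counts that left 12654 rows for testing. Dgat2 was the member that did not pass.

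Bulk RNA-seq was performed on peritoneal macrophages of C57BL/6 mice aged 8 weeks, collected on day 3 after thioglycollate infusion, an irritant that draws macrophages into the peritoneal cavity. The 5 libraries of the control group came from cells labelled untreated. The 5 libraries of the ox-LDL group came from cells given ox-LDL, low-density lipoprotein with oxidized lipids, which macrophages take up through scavenger receptors. By the study's design text the treatment was priming with lipopolysaccharide (LPS, a bacterial cell wall component) at 100 ng/ml followed by ox-LDL at 100 µg/ml for 16 h. If LPS was given to the ox-LDL group alone, as the label untreated reads, effects of LPS and of ox-LDL cannot be told apart here, and whether the control cells also received LPS is not clear from the sources used here. Each group is described as 5 biological replicates, but which mouse gave which library is not stated.

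A macrophage that takes up modified lipoprotein becomes a foam cell by turning the cholesterol and fatty acids it receives into esters. The esters are packed into lipid droplets, whose surface is coated by perilipins. Acyltransferases of the endoplasmic reticulum make the esters, lipases at the droplet surface release fatty acids again, and small carrier proteins move those fatty acids to membranes, mitochondria and nuclear receptors. Foam cells of this kind fill the atherosclerotic plaque, the setting the study addressed.

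The total count per library was 20094647 to 20687289 in the control group and 19257131 to 20358017 in the ox-LDL group, so depth was nearly even. The libraries differed more in how their counts were spread over short and long genes. In ox-LDL replicate 2 short genes ran high against the average library, with a Spearman correlation of −0.547 between a gene's deviation and its length over 12529 genes, and control replicates 1 and 4 leaned the same way at −0.429 and −0.359. Ox-LDL replicates 1, 3 and 4 leaned the other way, between 0.407 and 0.431. This matters for the members, since the lengths implied by the deposited values ran from 505 bases for Fabp4, 811 for Fabp5 and 843 for Hilpda to 3796 for Lpl and 4836 for Soat1, and values with the length trend removed are therefore given where they change a call.

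The cells carried the transcripts of macrophages. All 10 macrophage markers listed were detected, with a summed level of 23516 to 43152 CPM (counts scaled to a common library size) in control libraries and 13575 to 28514 CPM in ox-LDL libraries. Because Plin2, Lpl and Fabp4 are also abundant in fat cells, adipocyte markers were examined: 6 of 10 had a row, none was detected at 10 counts in 5 libraries, and their sum was 0.1 to 0.202 CPM in the control group and 0 to 0.212 CPM in the ox-LDL group. Adipoq had at most 2 counts, and Plin1 and Cidec at most 1, in any library. Fibroblast markers were the other list that moved with the groups, at 17.4 to 59.2 CPM across the control group and 66.2 to 177 CPM across the ox-LDL group, with 5 of 7 detected, and neutrophil markers summed to 7.46 to 16.2 and 13.7 to 91.0 CPM with 1 of 8, S100a8, detected. Summed markers of mesothelial cells, endothelial cells, B cells, T cells and eosinophils or mast cells overlapped between the groups, with 32.8 CPM as the highest sum, for endothelial markers. The part of fibroblast and neutrophil markers in the results for the members was not tested. In bulk RNA, fewer cells of a type and less RNA per cell cannot be told apart.

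All 10 members were located on the mouse assembly that the deposited values were made from, mm9 (NCBIM37). Plin2 lay on chr4:86294290-86315964 of the minus strand, Plin3 on chr17:56418385-56429934 of the minus strand, and Hilpda on chr6:29222488-29225446 of the plus strand, where the older annotation lists it as 2310016C08Rik. Soat1 lay on chr1:158358239-158404459, Dgat1 on chr15:76332445-76342381 and Dgat2 on chr7:106302173-106331223, all on the minus strand. Pnpla2 was on chr7:148641097-148646642 and Lpl on chr8:71404390-71431347, both on the plus strand. Fabp4 (chr3:10204347-10208576, minus strand) and Fabp5 (chr3:10012548-10016607, plus strand) were on the same chromosome. No member overlapped another annotated gene. Fabp5 had 4 near-identical copies elsewhere in the assembly, each covering over 50% of its 987-base transcript with up to 98.7% identity, so its count may include or lose reads shared with them, whereas no such copy was found for the other 9 members.

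Promoter sequence is shown for Plin2 and Hilpda, the pair with the lowest adjusted p of the members. Both are known targets of hypoxia-inducible factors as well as of lipid-sensing nuclear receptors, and the letters searched for were ACGTG and GCGTG on either strand, the core of the hypoxia response element. The RefSeq promoters used here covered 5 of the 10 members (Plin2, Plin3, Hilpda, Soat1 and Pnpla2), each from 250 bases before to 50 after the start. In the sequences below, from GRCm38.p6 and written 5′ to 3′ on the gene's strand, capitals mark the matches. Plin2 is chr4:86670010-86670309 of the minus strand, and Hilpda is the second of its 2 listed starts, chr6:29272376-29272675 of the plus strand.
Plin2: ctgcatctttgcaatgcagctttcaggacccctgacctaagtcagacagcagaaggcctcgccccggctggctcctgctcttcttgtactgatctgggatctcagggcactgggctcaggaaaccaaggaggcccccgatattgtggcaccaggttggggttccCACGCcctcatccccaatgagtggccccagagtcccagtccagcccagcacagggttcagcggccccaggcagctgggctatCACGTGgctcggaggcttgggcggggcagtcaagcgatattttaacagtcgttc
Hilpda: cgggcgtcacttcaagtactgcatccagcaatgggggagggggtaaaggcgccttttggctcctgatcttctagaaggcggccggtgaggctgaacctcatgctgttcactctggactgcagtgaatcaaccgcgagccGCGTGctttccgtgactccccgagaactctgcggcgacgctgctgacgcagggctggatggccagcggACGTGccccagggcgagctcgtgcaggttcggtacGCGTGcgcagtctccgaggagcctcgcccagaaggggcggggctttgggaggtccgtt
The Plin2 window held 3 matches, of which 2 overlap in the palindrome CACGTG, and the Hilpda window held 3. Of 32851 promoters of this length, 43.8% held at least 1 match, 20.6% at least 2 and 8.9% at least 3. The first Hilpda start had 1 match, Soat1 had 2, and Plin3 and Pnpla2 had none. These matches describe letters and not bound sites.

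Of the 9 members tested, 1 was higher in ox-LDL-treated macrophages, Hilpda, and 0 were lower at an adjusted p below 0.01 in edgeR's quasi-likelihood test. Over all 12654 genes, 9.40% were called higher (1189 genes) and 5.35% lower (677 genes), so the members' count was near the background. Their log2 fold changes, ox-LDL over control, had a median of 0.11 with 6 of 9 above 0, beside a median of 0.10 with 7117 above 0 over all genes tested. On the scale of deposited FPKM the balance of calls over all genes turned to 555 higher and 750 lower (42.5% higher, against 63.7% in the count test). No member separated the groups without overlap, which 11.6% of all genes did in the higher direction and 9.11% in the lower.

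**Figure D1:**
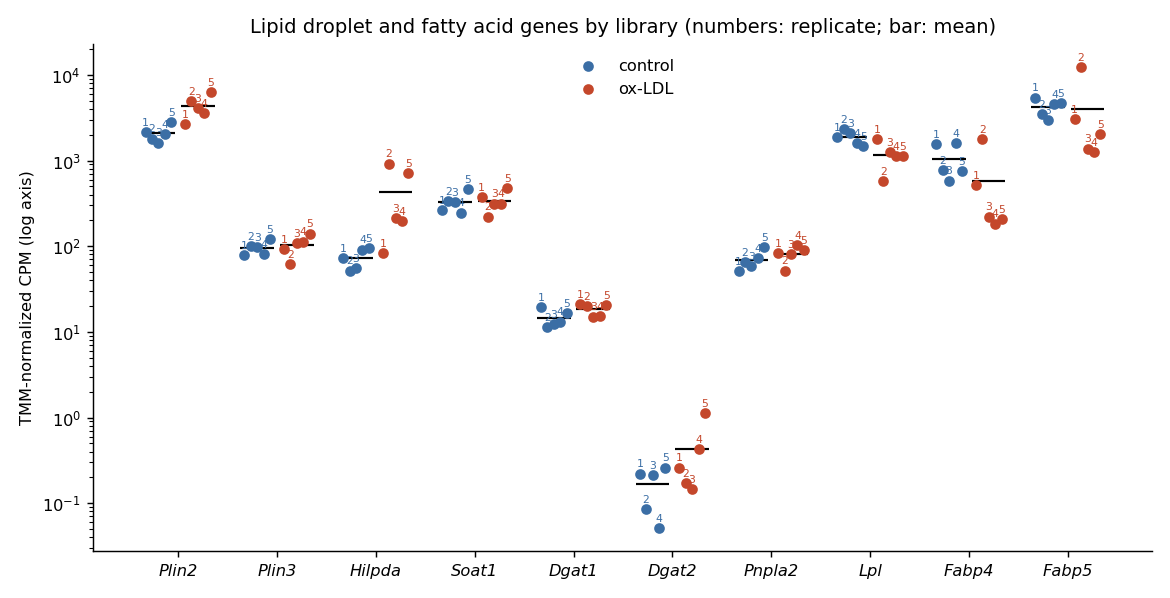
Level of each member in every library, in CPM on a log axis, with control and ox-LDL libraries side by side, 1 point per library and the group mean as a line. Hilpda spans 82.2 to 920 CPM in the ox-LDL group against 51.7 to 94.3 in control, and 1 ox-LDL library lies far above the other 4 for Fabp4 and Fabp5.

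Of the 3 droplet-surface members, Hilpda was called higher, and Plin2 and Plin3 did not pass the test. Hilpda, a small droplet-associated protein that inhibits the lipase encoded by Pnpla2, measured 73.3, 51.7, 55.7, 91.3 and 94.3 CPM in control replicates 1 to 5. In ox-LDL replicates 1 to 5 it measured 82.2, 920, 213, 195 and 711 CPM. Replicate 2 held fewer Hilpda counts than replicate 5 (10745 against 11905), so its first place in CPM depends on the scaling between libraries. Ox-LDL replicates 2 to 5 were above every control library, while replicate 1 lay inside the control range. The mean went from 73.3 ± 19.6 to 424 ± 368 CPM (SD, n = 5), a fitted log2 fold change of 2.53 (SE 0.58, 5.79-fold) with an adjusted p of 0.00700. Size and call depended on the libraries: the log2 fold change was 2.00 (adjusted p 0.00955) without ox-LDL replicate 2, 2.31 (adjusted p 0.0213) without ox-LDL replicate 5, and 2.42 to 2.64 with adjusted p of 0.0139 to 0.0220 without any one of control replicates 1 to 5. Leaving out control replicate 5 and ox-LDL replicates 2 and 5 together gave 1.21, 2.31-fold (adjusted p 0.0138).

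Plin2, the perilipin that coats droplets in most cells outside fat tissue and is degraded when it has no droplet to bind, was at 2133, 1797, 1620, 2046 and 2810 CPM in control replicates 1 to 5. The ox-LDL libraries held 2645, 4950, 4128, 3571 and 6239 CPM. In CPM replicates 2 to 5 of the ox-LDL group were above every control, and replicate 1 was below control replicate 5. In FPKM replicate 2, at 1673, was the lowest of the ox-LDL group. Both replicate 2 and replicate 1, at 1800 FPKM, were below control replicate 5 at 1840 FPKM. The place of replicate 2 thus depends on the scaling between libraries. The means were 2081 ± 455 and 4307 ± 1368 CPM, a log2 fold change of 1.05 (SE 0.29, 2.07-fold) with an adjusted p of 0.0203, which misses the threshold of 0.01. With the length trend removed the log2 fold change was 1.10 and the adjusted p 0.00366. It was also below 0.01 without ox-LDL replicate 1 (log2 fold change 1.18, adjusted p 0.00996). Of 24 other settings, 4 in all brought it below 0.01, and its log2 fold change stayed between 0.81 and 1.18 in all of them.

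Plin3, the perilipin that moves from the cytosol onto newly formed droplets, was 95.7 ± 17.01 CPM in the control group and 103 ± 28.8 CPM in the ox-LDL group (79.3 to 121 and 61.6 to 140 CPM). Its log2 fold change was 0.11 (SE 0.23, adjusted p 0.766), and turned to −0.04 with upper-quartile scaling or library size alone and to −0.12 on FPKM. The 2 perilipins are compared most directly within a library. The log2 ratio of Plin2 to Plin3, from FPKM with 1 added, was 4.93, 4.36, 4.27, 4.86 and 4.73 in control and 5.01, 6.47, 5.43, 5.19 and 5.66 in ox-LDL replicates 1 to 5. The groups did not overlap in this ratio, and the implied transcript lengths are close, 1716 and 1993 bases. Within each group the ratio was highest in the libraries in which short genes ran high, ox-LDL replicate 2 and control replicates 1 and 4. The part of the length trend in this ratio was not tested. The mean ratio went from 4.63 ± 0.30 to 5.55 ± 0.57, a difference of 0.92 (exact two-sided permutation p = 0.00794, the smallest this design allows; adjusted over the 3 ratios tested, 0.0238).

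**Figure D2:**
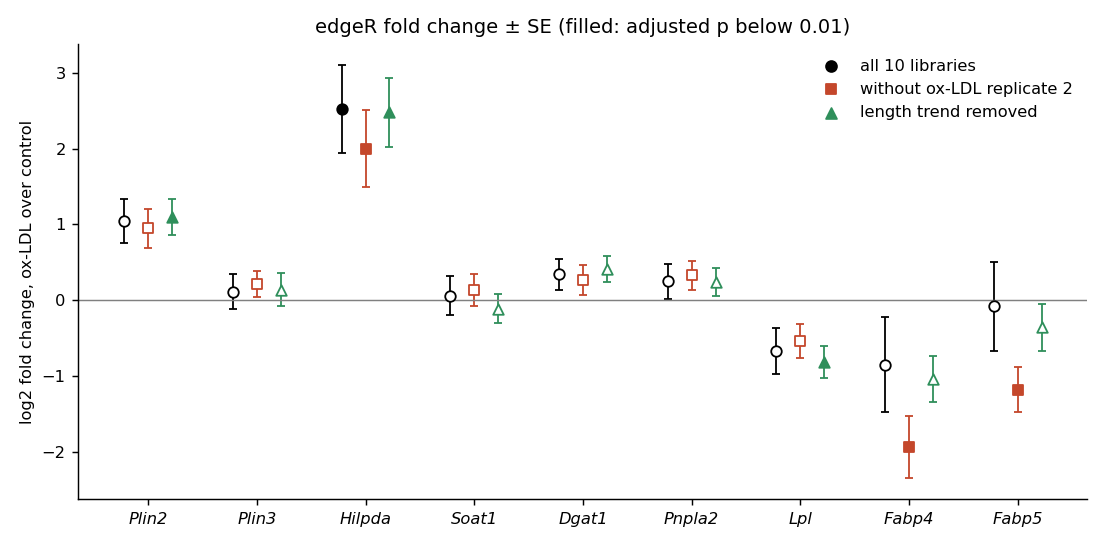
Log2 fold change, ox-LDL over control, of each tested member with its standard error, from all 10 libraries and from the fits without ox-LDL replicate 2 and with the length trend removed. Hilpda (2.53) and Plin2 (1.05) stay above 0 in all 3 fits, while Fabp4 moves from −0.85 to −1.94 and Fabp5 from −0.08 to −1.18 without that library.

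None of the 3 esterifying enzymes passed the test. Soat1, the acyltransferase that makes cholesteryl ester in macrophages, was 327 ± 85.0 CPM in the control group and 340 ± 93.5 CPM in the ox-LDL group. Its ranges of 247 to 463 and 221 to 474 CPM overlapped almost fully, with a log2 fold change of 0.06 (SE 0.26, adjusted p 0.897) that was −0.09 with upper-quartile scaling, −0.10 with library size alone, −0.11 with the length trend removed and −0.13 on FPKM. Dgat1, which adds the last acyl chain to triglyceride in the endoplasmic reticulum, was 19.2, 11.4, 12.3, 13.1 and 16.7 CPM in control replicates and 21.3, 20.1, 15.1, 15.4 and 20.5 CPM in ox-LDL replicates 1 to 5. In CPM ox-LDL replicates 1, 2 and 5 were above every control library, and the others lay within the control range. In FPKM replicate 2, at 7.7, was the lowest of all libraries. Replicate 5, at 10.9 FPKM, lay inside the control range of 7.96 to 11.8 FPKM. The places of replicates 2 and 5 thus depend on the scaling between libraries. The log2 fold change of Dgat1 was 0.34 (SE 0.20, adjusted p 0.223).

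Dgat2, the other triglyceride-forming acyltransferase and the abundant one in liver and fat, had 4, 2, 5, 1 and 6 counts in control and 6, 2, 3, 9 and 19 counts in ox-LDL replicates 1 to 5. These are 0.0515 to 0.261 and 0.146 to 1.13 CPM, too few for the filter, and a difference was not detectable at this depth (log2 fold change 1.27, SE 0.68, adjusted p 0.247 in the fit without a filter). The log2 ratio of Dgat2 to Dgat1 differed by −0.02 between the groups (exact two-sided permutation p = 0.913, adjusted over the 3 ratios 0.913). With Dgat2 near 0 that ratio mostly follows Dgat1 and the value added before the logarithm.

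Pnpla2 encodes adipose triglyceride lipase, which takes the first fatty acid off stored triglyceride. It was at 50.8, 64.7, 58.3, 73.2 and 97.2 CPM in control replicates and 83.7, 52.0, 80.3, 103 and 89.4 CPM in ox-LDL replicates 1 to 5. The groups overlapped, at 68.8 ± 17.9 and 81.6 ± 18.6 CPM, with a log2 fold change of 0.25 (SE 0.23, adjusted p 0.466).

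Lpl encodes lipoprotein lipase, which macrophages secrete and which releases fatty acids from lipoproteins at the cell surface. Control replicates 1 to 5 held 1890, 2319, 2087, 1604 and 1470 CPM, and ox-LDL replicates 1 to 5 held 1791, 573, 1254, 1137 and 1118 CPM. Replicates 2 to 5 of the ox-LDL group were below every control, and replicate 1 was within the control range. The means were 1874 ± 346 and 1175 ± 434 CPM, a log2 fold change of −0.67 (SE 0.30) with an adjusted p of 0.121. With the length trend removed it was −0.82 (SE 0.21) with an adjusted p of 0.00856, in a fit that called 12.9% of all genes higher and 9.73% lower. Over all the settings tried the log2 fold change was −0.94 to −0.54, and that fit was the 1 of 24 that brought it past the threshold.

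The fatty acid carriers depended on 1 library. Fabp4, the carrier induced as macrophages mature and load lipid, was at 1554, 770, 583, 1600 and 757 CPM in control replicates and 518, 1782, 222, 184 and 209 CPM in ox-LDL replicates 1 to 5. In CPM replicate 2 held the highest value of all 10 libraries, and the other 4 ox-LDL libraries lay below every control. In FPKM replicate 2, at 2019, was inside the control range, below control replicates 1 and 4 at 2736 and 3029 FPKM. Its first place in CPM thus depends on the scaling between libraries. Across all libraries the means were 1053 ± 484 and 583 ± 684 CPM, with a log2 fold change of −0.85 (SE 0.63, adjusted p 0.347). Without ox-LDL replicate 2 the log2 fold change was −1.94 (SE 0.41, adjusted p 0.00336).

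Fabp5, the related carrier that was first described in skin, was at 5432, 3518, 2973, 4560 and 4669 CPM in control replicates and 3070, 12341, 1377, 1243 and 2015 CPM in ox-LDL replicates 1 to 5. The same library stood highest, replicate 1 lay just inside the control range, and the other three were below it. The log2 fold change was −0.08 (SE 0.59, adjusted p 0.942) over all libraries and −1.18 (SE 0.30, adjusted p 0.00887) without ox-LDL replicate 2. That fit, over 12973 genes, called 13.5% of all genes higher and 11.6% lower, and of the 9 members it called Hilpda higher and Fabp4 and Fabp5 lower. With the length trend removed and all libraries kept, the log2 fold change was −1.04 (adjusted p 0.0159) for Fabp4 and −0.36 (adjusted p 0.381) for Fabp5. Ox-LDL replicate 2 is the library in which short genes ran highest, and Fabp4 and Fabp5 have the shortest implied lengths of the members, with Hilpda close to Fabp5. The part of this length trend in the 2 values was not tested beyond these fits.

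Within a library the 2 carriers kept a tighter relation. The log2 ratio of Fabp5 to Fabp4, from FPKM with 1 added, was 1.13, 1.51, 1.66, 0.83 and 1.94 in control and 1.88, 2.12, 1.95, 2.08 and 2.58 in ox-LDL replicates 1 to 5. Ox-LDL replicate 2 was not apart from its group in this ratio. Its mean was 1.41 ± 0.44 in control and 2.12 ± 0.27 in ox-LDL libraries, a difference of 0.70 (exact two-sided permutation p = 0.0159, adjusted over the 3 ratios 0.0238), with control replicate 5 above ox-LDL replicate 1. The longest run of identical bases shared by the 2 transcripts was 12, so few reads could fit both. Their implied lengths are 505 bases for Fabp4 and 811 for Fabp5. In control the ratio was lowest in replicates 1 and 4, where short genes ran high, while ox-LDL replicate 2 was not lowest in its group. The part of the length trend in this ratio was not tested.

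**Figure D3:**
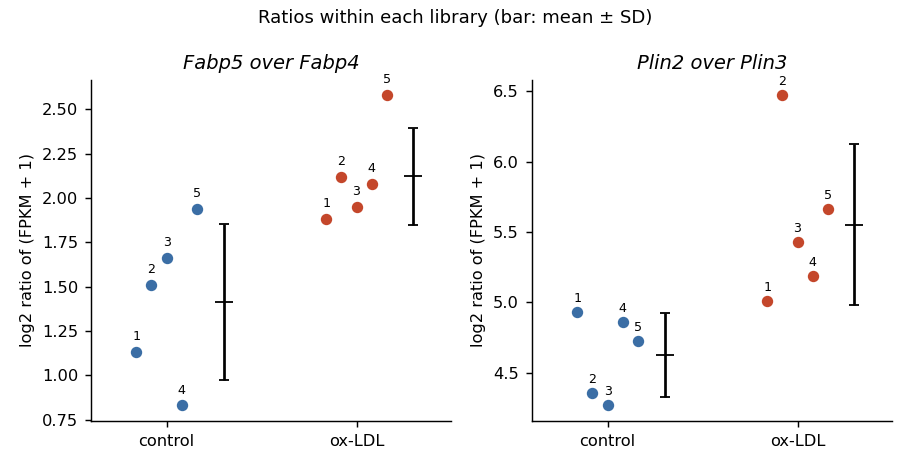
Log2 ratio of Fabp5 to Fabp4 and of Plin2 to Plin3 in each library, from FPKM with 1 added, with 1 numbered point per library (the replicate) and a bar for the group mean ± SD; the axes do not start at 0. Plin2 to Plin3 separates the groups (4.27 to 4.93 in control, 5.01 to 6.47 in ox-LDL), and Fabp5 to Fabp4 overlaps in 1 pair of libraries.

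Levels can be compared between genes only per length, here as FPKM. In control macrophages Fabp5 was the most abundant member at 5403 ± 883 FPKM, followed by Fabp4 at 2104 ± 734, Plin2 at 1282 ± 314 and Lpl at 524 ± 129 FPKM. Hilpda (90.8 ± 23.8), Soat1 (72.3 ± 25.0), Plin3 (51.3 ± 13.7) and Pnpla2 (29.8 ± 9.41) came next, and Dgat1 (9.42 ± 1.71) and Dgat2 (0.094 ± 0.0456 FPKM) were last. Neighbours in this order whose libraries overlapped were Fabp4 and Plin2, Hilpda and Soat1, Soat1 and Plin3, and Plin3 and Pnpla2. The carriers were thus the most abundant of these 10 transcripts in control cells, although Plin2 was above Fabp4 in control replicate 5 (1840 against 1690 FPKM).

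In ox-LDL-treated macrophages Fabp5 averaged 3741 ± 3030 FPKM, Plin2 2250 ± 533 and Fabp4 886 ± 726 FPKM. The first place of Fabp5 rests on replicates 1 and 2, at 4452 and 8760 FPKM, whereas in replicates 3, 4 and 5 Fabp5 was at 1784, 1658 and 2051 FPKM, below Plin2 at 2526, 2280 and 2973 FPKM. By the mean, Hilpda, at 391 ± 256 FPKM, stood above Lpl at 311 ± 168 FPKM, which it had been below in control cells. Within libraries Hilpda was above Lpl only in replicates 2 (629 against 87.8 FPKM) and 5 (696 against 242 FPKM). It was below Lpl in replicates 1 (115 against 550), 3 (266 against 347) and 4 (250 against 328 FPKM). Soat1 (68.4 ± 25.4), Plin3 (49.9 ± 18.0), Pnpla2 (32.3 ± 12.6), Dgat1 (10.7 ± 2.68) and Dgat2 (0.21 ± 0.148 FPKM) kept their order. The ranges of all neighbours overlapped except those of Dgat1 and Dgat2, but such ranges set different libraries side by side. Within ox-LDL libraries Plin2 was above Fabp4 in replicates 1 (1800 against 1213), 3 (2526 against 463), 4 (2280 against 392) and 5 (2973 against 343 FPKM). It was below Fabp4 in replicate 2 (1673 against 2019 FPKM). The change of order was not tested.

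For the 4 members of lowest adjusted p, the genes with the most similar pattern were found by the correlation of deviations from the group means over the 10 libraries. Hilpda varied most closely with Fbl (r = 0.985), a nucleolar RNA methyltransferase, and Cd83 (r = 0.978), an activation marker of antigen-presenting cells. Plin2 varied with Hmces (r = 0.953) and Slc25a43 (r = 0.948), Lpl with Aggf1 (r = 0.988) and Slc25a36 (r = 0.985), and Dgat1 with the lysosomal protease Ctsd (r = 0.961) and the complement regulator Cfp (r = 0.94). Among the members themselves the strongest positive correlations were 0.94 between Fabp4 and Fabp5, 0.88 between Plin3 and Soat1 and 0.87 between Plin2 and Hilpda, and the strongest negative ones were −0.91 between Plin3 and Fabp4 and −0.86 between Hilpda and Lpl. These libraries share the length trend described above, and the correlations are a description.

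The other genes of lipid storage and fatty acid handling were taken from a list of 106 arranged by role, of which 101 had a row and 70 were tested. Of these 70, 7 were called higher and 8 lower by the same test, where 9.40% and 5.35% of all genes were, with a median log2 fold change of 0.06. Without ox-LDL replicate 2 the counts were 11 higher and 13 lower of 73, against 13.5% and 11.6% of all genes in that fit. The largest log2 fold changes among the calls lay in fatty acid activation, in carriers and in transcriptional regulators.

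Fatty acid uptake, activation and carriers had 10 tested genes, of which 2 were higher and none lower. Acsl1, which attaches coenzyme A to long-chain fatty acids so that they can be esterified or oxidized, rose from 24.5 ± 6.11 to 387 ± 226 CPM, a log2 fold change of 3.98 (SE 0.38, adjusted p 3.35e-05). The groups did not overlap, at 19.5 to 34.7 and 199 to 778 CPM. Fabp3, the carrier best known from heart and skeletal muscle, rose from 6.87 ± 1.88 to 68.5 ± 38.5 CPM (log2 fold change 3.32, SE 0.50, adjusted p 0.000540). Ox-LDL replicate 1, at 10.6 CPM, was just above the highest control library at 9.96 CPM, while the other ox-LDL libraries held 65.9 to 119 CPM. Per length Fabp3 remained below Fabp4 and Fabp5, at 10.8 to 195 FPKM over all libraries against at least 343 FPKM for Fabp4. Cd36, a scavenger receptor for oxidized lipoprotein and a fatty acid transporter, was 2694 to 5243 CPM in control cells and 1397 to 3824 CPM in ox-LDL-treated cells (log2 fold change −0.53, SE 0.32, adjusted p 0.239).

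Of the 13 transcriptional regulators tested, 3 were higher and 2 lower. Pparg, the nuclear receptor that binds oxidized fatty acids and drives Fabp4, Cd36 and Plin2 transcription, fell from 109 ± 23.4 to 20.01 ± 5.78 CPM (log2 fold change −2.45, SE 0.24, adjusted p 3.66e-05). Of the hypoxia-inducible factors, Epas1 fell from 55.7 ± 18.3 to 8.25 ± 4.75 CPM (log2 fold change −2.75, SE 0.43, adjusted p 0.000700), while Hif1a rose from 88.6 ± 16.9 to 438 ± 412 CPM (log2 fold change 2.30, SE 0.49, adjusted p 0.00448). Ox-LDL libraries did not overlap control libraries for any of these 3 genes. Hif1a was highest in ox-LDL replicate 5 at 1168 CPM against 165 to 309 CPM in the other 4, and without that library its log2 fold change was 1.52, 2.87-fold (adjusted p 0.00124). Ppard (log2 fold change 2.14, adjusted p 0.00526) and Cebpb (2.19, adjusted p 0.000276) were the other two regulators called, named here after their values were seen.

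In triglyceride and sterol ester synthesis, 1 of 11 tested genes was higher and 1 lower. Gpat3, which starts glycerolipid synthesis by acylating glycerol-3-phosphate, went from 1.21 ± 0.437 to 3.34 ± 0.134 CPM (log2 fold change 1.46, SE 0.28, adjusted p 0.00262). Lpin1, a phosphatidate phosphatase that makes the diacylglycerol used by the Dgat enzymes, fell from 17.8 ± 1.28 to 4.59 ± 2.45 CPM (log2 fold change −1.94, SE 0.40, adjusted p 0.00397). Lpin2, a second lipin named here after its values were seen, was at 13.8 ± 2.76 and 27.0 ± 9.28 CPM and did not pass (log2 fold change 0.97, SE 0.28, adjusted p 0.0232).

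Among 8 tested genes of lipolysis and ester hydrolysis, Nceh1, a hydrolase of neutral cholesteryl ester in macrophages, was the 1 called, falling from 320 ± 46.1 to 147 ± 45.6 CPM (log2 fold change −1.12, SE 0.24, adjusted p 0.00456). Its acyltransferase counterpart Soat1 had a log2 fold change of 0.06, as given above. Abhd5, the activator of the Pnpla2 lipase, was at 90.7 ± 6.46 and 91.1 ± 28.7 CPM (log2 fold change 0.00, SE 0.21, adjusted p 0.990). G0s2, a second inhibitor of that lipase, was too low for the filter, at 0.174 to 1.16 CPM in control cells and 0 to 0.391 CPM in ox-LDL-treated cells. In the fit without a filter its log2 fold change was −2.06 (SE 0.71, adjusted p 0.0542).

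Of 6 other tested droplet-associated genes, 1 was lower: Ldah, a hydrolase found on droplets, went from 49.7 ± 1.60 to 32.0 ± 3.87 CPM (log2 fold change −0.64, SE 0.14, adjusted p 0.00661). None of 5 tested genes around lipoprotein lipase passed. Angptl4, a secreted inhibitor of the enzyme, was 11.4 to 14.8 CPM in ox-LDL libraries and 3.98 to 6.91 CPM in 4 control libraries, with control replicate 5 highest of all at 16.1 CPM (log2 fold change 0.72, SE 0.32, adjusted p 0.118). Without that library the log2 fold change was 1.16 (adjusted p 0.00297).

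Fatty acid oxidation had 17 tested genes, with 1 higher and 3 lower. Acadm, the medium-chain acyl-CoA dehydrogenase, fell from 69.4 ± 11.5 to 33.5 ± 9.12 CPM (log2 fold change −1.05, SE 0.22, adjusted p 0.00464). The mitochondrial thiolase Acaa2 had a similar log2 fold change of −1.01 (SE 0.22, adjusted p 0.00472), and Hadhb, a subunit of the trifunctional protein named here after its value was seen, one of −0.76 (adjusted p 0.00406). Acadl, the long-chain acyl-CoA dehydrogenase, rose from 109 ± 9.25 to 212 ± 25.8 CPM (log2 fold change 0.97, SE 0.17, adjusted p 0.00135).

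Acsl1, Fabp3, Pparg and Epas1 stayed past the threshold, with the same sign, in all 24 other settings. Smaller effects were less firm: Gpat3 and Lpin1 passed in 21, Acadl in 20, Hif1a in 19, Acadm in 18, Acaa2 in 17, Nceh1 in 16 and Ldah in 11 of the 24, with no change of sign. Hif1a missed the threshold without any one of the 5 control libraries (adjusted p 0.0110 to 0.0157). Leaving out 1 library took Gpat3 to at most 0.0101 and Lpin1 to at most 0.0112, by control replicate 2 or ox-LDL replicate 3. Acadm, Acaa2, Nceh1 and Ldah each lost the call without any of several libraries of either group, with adjusted p up to 0.0146, 0.0164, 0.0161 and 0.0204.

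**Figure D4:**
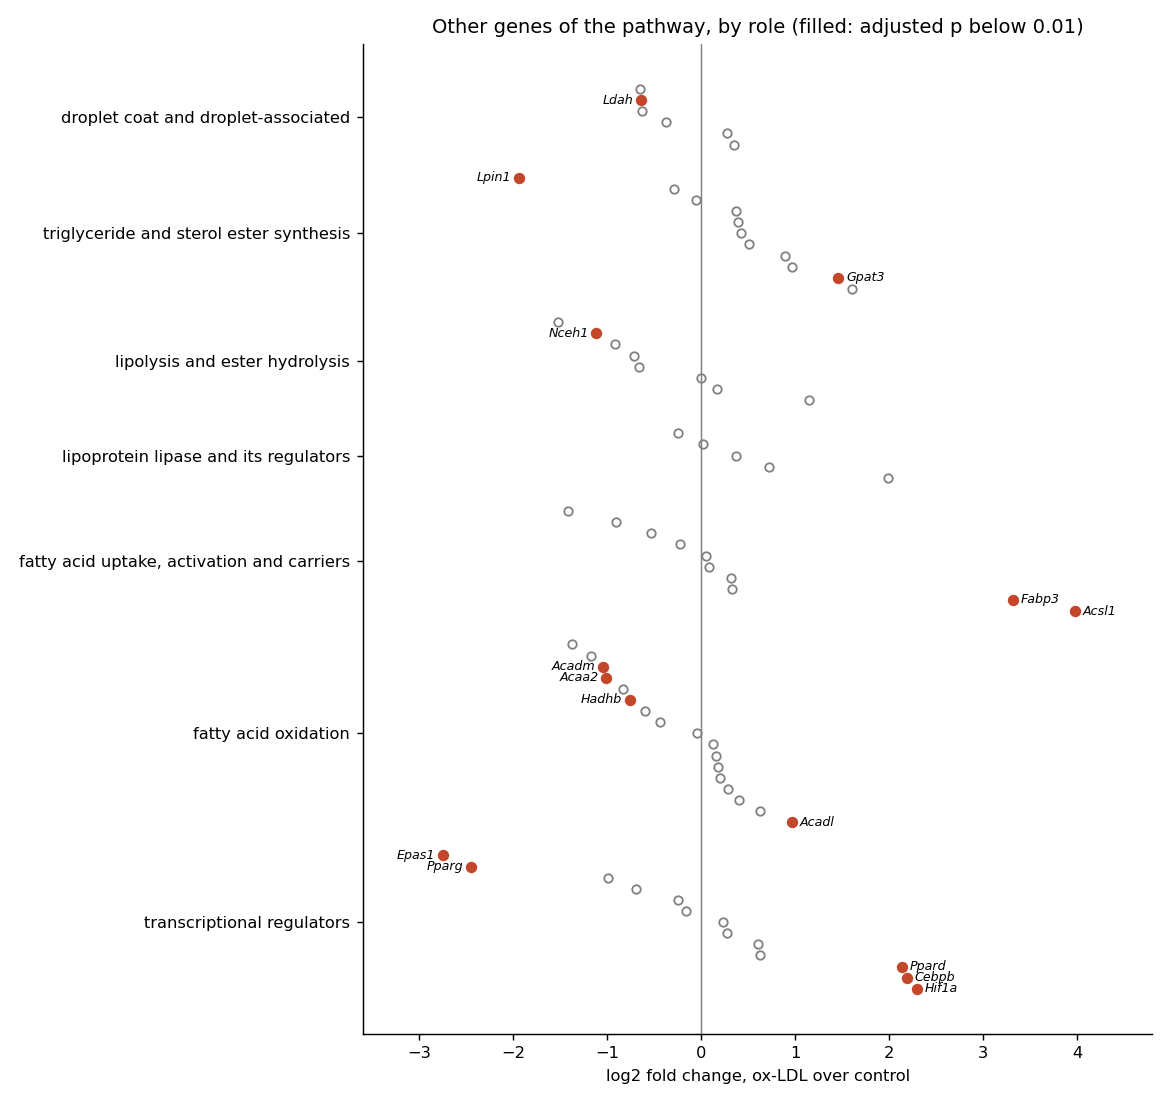
Log2 fold change, ox-LDL over control, of the 70 other tested genes of lipid storage and fatty acid handling, grouped by role, with filled points for an adjusted p below 0.01. Acsl1 (3.98) and Fabp3 (3.32) lie farthest to the right, and Epas1 (−2.75) and Pparg (−2.45) farthest to the left.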

How the data were processed

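Bulk RNA-seq (BGISEQ-500, TRIzol RNA) of 10 libraries was analysed, 5 control and 5 ox-LDL, grouped by the treatment label. Per the labels the authors used FastQC, HISAT2 2.0.5 on mm9, SAMtools 1.4 and StringTie 1.3.3.13, while the counting step, annotation and use of strand are not given in the sources used here. The gene table the authors deposited holds estimated counts; 13.6% of the values were not whole and were rounded here. The per-library values deposited by the authors name no unit and were treated as FPKM, since the gene length implied by count and value was the same over libraries (median spread 0.966% over 5044 genes). Of 39488 rows, 9788 circular RNA rows were left out.

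Counts were tested with edgeR 4.0.16 (R 4.3.3): filterByExpr, trimmed mean of M-values (TMM) scaling, robust quasi-likelihood fit on group, and Benjamini-Hochberg adjustment over 12654 genes, with a call at an adjusted p below 0.01. The SE is the log2 fold change over the square root of F. Gene levels are TMM-scaled CPM, and marker sums are CPM by library size alone. The length trend was removed by a loess curve (span 0.5) of each library's deviations on implied length, entered as offsets. Ratios within a library used log2(FPKM + 1) and an exact permutation test over libraries. Alternatives were DESeq2 1.42.0, limma-voom and limma 3.58.1 on FPKM, other scalings and filters, a replicate block, and leaving out libraries. Leaving out 3 libraries together was chosen after seeing the data. Code was tested on simulated data. Totals of 19257131 to 20687289 counts per library leave little counting error except for genes of a few counts, such as Dgat2, and p-values measure the spread between these libraries.

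The members, pathway and marker lists were chosen with earlier results of these data known. The genes named are the members, at most 3 called genes of largest log2 fold change per role, the regulators G0s2, Abhd5, Angptl4, Gpihbp1 (not analysed here), Cd36 and Pparg, and the 2 genes most like each of 4 members, while Ppard, Cebpb, Hadhb and Lpin2 were added after their values were seen. Promoters come from RefSeq (GRCm38.p6), and gene positions and transcript copies from a search of mm9 with its own annotation. Whether the replicate numbers pair the libraries is not stated in the sources used here. The main test did not treat them as pairs, and the closing section gives values with a replicate block.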

Additional observations from a re-analysis of the deposited data

Results flagged for a closer look

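Over the members, the named pathway genes and the 3 ratios, 58 groups of 5 libraries were examined. Of these, 7 held a library that stood apart from the others by Dixon's test. Chance would give about 2.9 (1 in 20) if the groups were independent and their values normally distributed. The groups share libraries, and CPM was used without a logarithm, so 2.9 is a rough guide only. Values in parentheses give the gap between the library that stood apart and the next. The gap is divided by the spread from lowest to highest, with 0.71 as the critical value. Ox-LDL replicate 2 stood apart for both carriers, with Fabp4 at 1782 CPM against 518 CPM for the next library (0.791) and Fabp5 at 12341 against 3070 CPM (0.835). Ox-LDL replicate 5 stood apart for Dgat2, at 1.13 against 0.431 CPM (0.712), for Acsl1, at 778 against 348 CPM (0.743), and for Hif1a, at 1168 against 309 CPM (0.856). Control replicate 5 held the highest Angptl4, at 16.1 against 6.91 CPM (0.757). The log2 ratio of Dgat2 to Dgat1 was lowest in ox-LDL replicate 1 (0.775), a ratio that rests on very few Dgat2 counts.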

How the results depend on the processing

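Of the 9 tested members, the number called higher was 2 with DESeq2, with the length trend removed, with that and a replicate block, and at an adjusted p below 0.05 (Plin2 joined Hilpda), 0 with limma-voom, without a filter, with the replicate block and with 3 libraries left out, and 0 to 2 with 1 library left out. The number called lower was 1 (Lpl) with the length trend removed, 1 (Fabp4) with that and the block, and 0 to 2 with 1 library left out. Of the other pathway genes (70 tested, but 66 on FPKM, 72 with 3 libraries left out and 71 to 73 with 1 left out), 4 were higher with library size alone or on FPKM + 0.1, 15 with 3 libraries left out and 4 to 11 with 1 left out. The number lower was 13 with DESeq2 or the length trend removed. It was 16 with the trend removed and the block, or at an adjusted p below 0.05. It was 5 with library size alone and 19 with 3 libraries left out. It was 2 with an absolute log2 fold change above 2, and 2 to 13 with 1 library left out. Over all genes the calls moved too, from 1189 higher and 677 lower of 12654 in the main fit. They were 1765 and 1244 with DESeq2, 1638 and 1231 with the trend removed, and 1539 and 1242 with that and the block. They were 704 and 583 with library size alone, and 543 and 700 of 10470 on FPKM + 0.1. They were 1946 and 1653 of 13211 with 3 libraries left out. With 1 library left out they were 826 to 1755 and 436 to 1502. The sign turned for Plin3 (−0.04 with upper-quartile scaling and with library size alone, −0.12 on FPKM with either value added, and −0.04 at the lowest with 1 library left out), for Soat1 (−0.09, −0.10 and −0.13 in the same settings, −0.01 without a filter, −0.11 with the length trend removed, −0.14 with that and the block, and −0.10 to 0.21 with 1 library left out), and for Fabp5 (−1.18 to 0.15 with 1 library left out). The ratio of Dgat2 to Dgat1 was 0.42 with 0.1 added to FPKM and −0.08 to 0.12 with 1 library left out. The cause of these changes was not tested.

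The labels number the replicates alike in both groups. The deviations of same-numbered libraries correlated at 0.024, −0.272, 0.443, −0.285 and 0.411, and only replicate 5 correlated best with its own number. The libraries were therefore not treated as pairs in the main test. These deviations also hold the length trend of each library, so they cannot decide whether same-numbered libraries share a mouse or day. With the replicate block, Hilpda had a log2 fold change of 2.04 (adjusted p 0.0323) and no member was called, with 885 genes higher and 549 lower over all. The paired differences of the Plin2 to Plin3 and Fabp5 to Fabp4 ratios stayed 0.92 and 0.70, with the smallest p that 5 pairs allow (exact permutation, 0.0625). Depth limits Dgat2 and G0s2, which reached at most 19 and 27 counts in any library.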
